A study of Mus musculus with 6 samples.

Results

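The genes of the proteasome, 48 in all with its activators, its assembly factors and the transcription factor Nfe2l1, were compared in quadriceps muscle of mice carrying RXF393 or SKRC39 cells. They were taken by gene symbol from the 19057 named genes on the array, with each gene read on its brightest probe by the mean of the 6 arrays. All were NOD-SCID mice, immunodeficient hosts that lack functional T and B lymphocytes, fed without restriction and injected under the skin with 5000000 cells 22 days before the muscle was taken. RXF393 and SKRC39 are human renal cancer lines, and the labels call the cells cachectic for RXF393 and not cachectic for SKRC39. Cachexia is a wasting of muscle and fat seen with some tumours. Muscle of tumour-free mice was not analysed here, so each difference is between 2 tumour-bearing groups. Sex and age are not given in the sources used here.

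Labels named the same line in title and characteristics on 4 arrays, which form the comparison: RXF393 replicates 2 and 3 against SKRC39 replicates 1 and 2, numbered by title. On the remaining 2 arrays they conflict. The array titled SKR_3 is labelled RXF393 in its characteristics, and the array titled RXF_1 is labelled SKRC39. Both are given apart. The design text speaks of 3 mice, of RNA taken mouse by mouse and of 6 RNA samples. It was read as 1 mouse per array. If the arrays were not separate mice, the p-values measure technical spread only.

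The proteasome destroys proteins tagged with ubiquitin and does much of the bulk proteolysis of muscle protein. Its 20S core is a barrel of alpha rings, which gate the entrance, around beta rings, which carry the cutting sites. The 19S cap recognises ubiquitin chains, removes them, and unfolds the substrate with a ring of ATPases. Interferon-gamma and immune cells bring in the immunoproteasome, in which Psmb8, Psmb9 and Psmb10 take the places of Psmb5, Psmb6 and Psmb7. PA28, made of Psme1 and Psme2, is the interferon-induced cap that often goes with it.

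When proteasome activity is short, Nfe2l1 is known to bind antioxidant response elements upstream of proteasome genes together with small Maf proteins. The core of that element, TGACNNNGC, was therefore sought in the 250 bases before each gene's start in the RefSeq promoter table (GRCm38.p6), on both strands. It was found in 5 of the 41 members with a promoter in that table, or 12.2%. Over all genes of the table the share was 11.5%, and over the tested genes 13.6%. The 5 stretches are shown because they are the only member promoters that hold the letters sought. The first 2 belong to constitutive catalytic subunits, and capitals mark the match or its reverse complement, GCNNNGTCA.
Psmb5, chr14:54618014-54618062, minus strand: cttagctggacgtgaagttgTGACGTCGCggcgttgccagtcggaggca
Psmb6, chr11:70525328-70525356, plus strand: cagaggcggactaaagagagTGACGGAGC
Psmc6, chr14:45329577-45329625, plus strand: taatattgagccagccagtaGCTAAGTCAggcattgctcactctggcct
Psmd12, chr11:107479278-107479309, plus strand: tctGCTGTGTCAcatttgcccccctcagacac
Psmd9, chr5:123228139-123228187, plus strand: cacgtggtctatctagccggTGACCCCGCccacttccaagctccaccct

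In the Psmb6 promoter the match ends 1 base before the start, in Psmd9 23 bases and in Psmb5 39 bases before it. The matches of Psmc6 and Psmd12 lie on the opposite strand, 219 and 239 bases before the start. The median log2 change between RXF393 and SKRC39 was 0.37 over the 5 tested members with the letters and 0.68 over the 31 tested members with a promoter in the table but without them. A match describes these letters in this window only.

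Of the 48 members, 47 had a probe, the exception being Psmf1, which encodes a proteasome inhibitor and is not analysed here. The 5 members Psma1, Psma3, Psmd3, Psmd5 and Psmg4 were not detected on any array. That left 42 tested, 37 of them detected on all 6 arrays. Values are log2 intensities after background correction and normalization. They are compared within a probe only, since probes differ in brightness. On the 10196 named genes tested, a gene was called at an adjusted p below 0.05 (limma, Benjamini-Hochberg over all probes). With 2 arrays per line, every estimate is imprecise.

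In the unpaired fit of the 4 arrays, no proteasome gene was called in either direction. Of all genes tested, 0.196% were called higher in RXF393 muscle and 0.157% lower. Adjusted p values of the members ran from 0.114, for Psmc4, to 0.988 (limma). A fit that paired the arrays by the replicate number in their descriptions called 6 higher, against 1.85% of all genes. They were Psma2, Psma5, Psmb2, Psmc2, Psmc4 and Psmd14. Whether that number pairs the arrays is not settled. The values themselves leaned 1 way for the constitutive particle and the other way for the immune one. Psma6 and Psmb8 were undetected on both arrays of 1 line, so the detection filter fixed their direction, and both are left out of the next 2 counts. Of the 27 other tested subunits of the constitutive 20S core and the 19S cap, 25 had a positive log2 change, with a median of 0.78. The 4 other genes of the immunoproteasome and of PA28 all had a negative one, with a median of -1.25. Over all genes tested the median was 0.07.

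At an unadjusted p below 0.05, 16 of the 42 tested members were higher in RXF393 muscle, or 38.1%, against 8.1% of all genes tested. In the lower direction 1 member, Psme1, passed that limit, or 2.38%, against 6.69% of all genes. Both RXF393 arrays lay above both SKRC39 arrays for 23 members, or 54.8%, against 28.1% of all genes. Both lay below for 3 members, Psmb8, Psmb10 and Psme1, or 7.14%, against 20.6% of all genes. Psma6 is among the 23 and Psmb8 among the 3, and the filter fixed the direction of both. All 16 higher members were constitutive 20S or 19S subunits. Their number was 8 without SKRC39 replicate 1, against 3.25% of all genes in that fit, and 8 without limma's intensity trend, against 7.59%. The median over the 42 tested members was 0.56 and the changes ran from -1.57 to 2.00. Over the 37 members detected on all 6 arrays, 29 had a positive log2 change and the median was 0.55, and a fit on probes so detected called Psma2, Psmc2 and Psmc4 higher, against 1.29% of all genes in it. Leaving out RXF393 replicate 2 put 6 members past the adjusted threshold, Psma2, Psma5, Psmb2, Psmc2, Psmc4 and Psmd1, against 1.7% of all genes. Leaving out SKRC39 replicate 2 put Psmc4 past it, against 0.726%. Leaving out an array leaves 1 in its line, which is assumed to vary like the pair in the other.

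**Figure D1:**
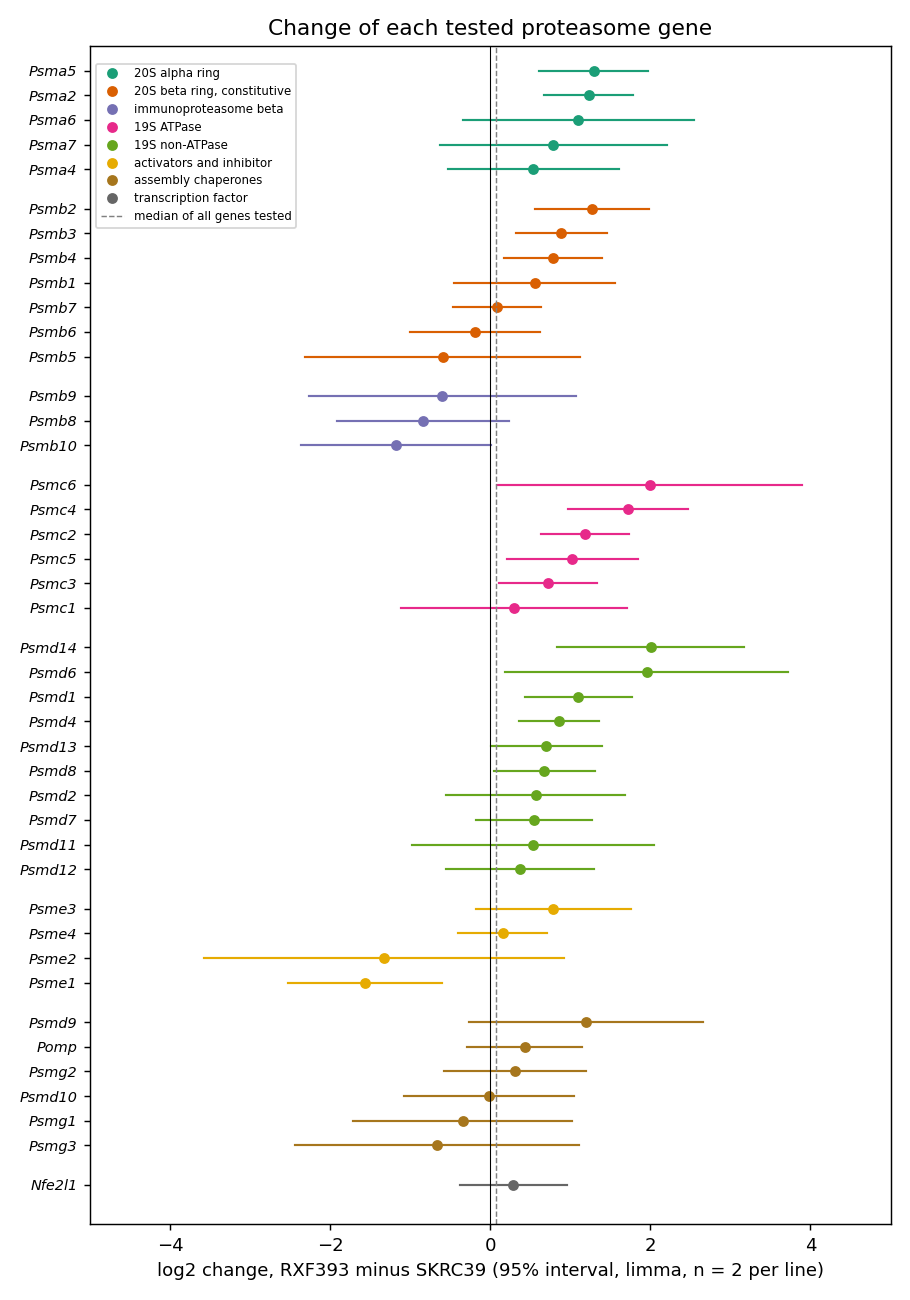
Log2 change of RXF393 against SKRC39 muscle for each of the 42 tested genes, grouped and coloured by role, with 95% intervals from limma (2 arrays per line). The dashed line is the median of all genes tested, 0.07. The 19S and alpha ring genes lie to the right of 0, and the 3 immunoproteasome genes and Psme1 to its left. Psma6 and Psmb8 are included, whose direction the detection filter fixed.

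The alpha rings hold 7 different subunits and form the gate of the barrel. Of the 7, 5 were tested. Leaving out Psma6, the 4 others had positive log2 changes, with a median of 1.01. Psma2 read 15.69 and 16.03 in RXF393 muscle (replicates 2 and 3, in that order from here on) and 14.54 and 14.72 in SKRC39 muscle (replicates 1 and 2). Psma5 read 15.20 and 15.72 in RXF393 muscle and 13.95 and 14.39 in SKRC39 muscle. The groups did not overlap for either gene. Their log2 changes were 1.23 ± 0.23 (SE) for Psma2, adjusted p = 0.119, and 1.29 ± 0.29 for Psma5, adjusted p = 0.165 (limma). On RXF393 replicate 3, Psma2 lay within 20% of the highest signal on the array, where a difference is compressed, as did Psmc2 and Psmd1 on that array and Psmb4 on RXF393 replicate 2.

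Psma6 was dim, at 5.67 and 7.11 in RXF393 muscle and 4.95 and 5.63 in SKRC39 muscle, where it was not detected on either array. Its difference in group means is a bound, at least 1.81-fold higher in RXF393 muscle, with an adjusted p of 0.485 (limma). It passed the detection filter only through arrays where it is high, so its direction was fixed by the filter. The remaining alpha subunits overlapped between groups. Psma7 read 14.90 and 12.92 in RXF393 muscle and 13.22 and 13.02 in SKRC39 muscle, so that replicate 2 was far above both SKRC39 arrays and replicate 3 just below them. Psma4 also had replicate 2 far above, with replicate 3 between the SKRC39 arrays, and a log2 change of 0.54 ± 0.45 (SE).

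The beta rings carry structural subunits and the 3 that cut. All 7 constitutive beta subunits were tested, 5 with a positive log2 change, with a median of 0.55, or 0.096 without SKRC39 replicate 1. The structural subunits Psmb2, Psmb3 and Psmb4 had the smallest p values of the ring. Psmb2 read 15.17 and 15.82 in RXF393 muscle and 14.03 and 14.42 in SKRC39 muscle. Psmb3 read 15.26 and 15.20 in RXF393 muscle and 14.19 and 14.49 in SKRC39 muscle. Psmb4 read 15.98 and 15.42 in RXF393 muscle and 14.83 and 15.00 in SKRC39 muscle. In all 3 the RXF393 arrays stood above the SKRC39 arrays without overlap. Their log2 changes were 1.27 ± 0.30, 0.89 ± 0.24 and 0.78 ± 0.26 (SE), and their adjusted p values 0.183, 0.223 and 0.302 (limma). Psmb1, also structural, overlapped at 0.55 ± 0.43.

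The 3 constitutive cutting subunits did not show that separation. Psmb5, which gives the chymotrypsin-like activity, read 10.45 and 8.46 in RXF393 muscle and 10.03 and 10.08 in SKRC39 muscle. Psmb6, the caspase-like site, read 14.49 and 13.63 in RXF393 muscle and 14.16 and 14.34 in SKRC39 muscle. For both, RXF393 replicate 2 was above the SKRC39 arrays and replicate 3 below them. Log2 changes were -0.60 ± 0.72 for Psmb5 and -0.19 ± 0.34 for Psmb6 (SE), with adjusted p values of 0.727 and 0.821 (limma). Psmb7, the trypsin-like site, had a log2 change of 0.08 ± 0.23 and an interval from -0.47 to 0.64. The intervals of Psmb5 and Psmb6 ran from -2.31 to 1.12 and from -1.003 to 0.62, so these arrays do not settle a direction.

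The immunoproteasome subunits, by contrast, were lower in value in RXF393 muscle. Psmb10, which replaces Psmb7, read 9.74 and 10.24 in RXF393 muscle and 10.76 and 11.57 in SKRC39 muscle. Psmb8, which replaces Psmb5, read 5.64 and 5.04 in RXF393 muscle, not detected on either array, and 6.15 and 6.22 in SKRC39 muscle. Neither gene overlapped between groups. Psmb9, which replaces Psmb6, read 6.73 and 7.72 in RXF393 muscle and 7.52 and 8.13 in SKRC39 muscle, with overlap.

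The log2 change of Psmb10 was -1.18 ± 0.50 (SE), adjusted p = 0.39, and that of Psmb9 was -0.60 ± 0.71, adjusted p = 0.719 (limma). Psmb8 was at least 1.34-fold lower in RXF393 muscle, adjusted p = 0.475 (limma). Like Psma6, it passed the filter only through arrays where it is high. Psmb10 is represented by 2 probes, and both gave negative values on both RXF393 arrays, from -1.43 to -0.85 relative to the SKRC39 mean. No test set Psmb10 against Psmb7 or another such pairing. With 2 arrays against 2, an exact two-sided permutation test cannot give a p below 0.333. Psmb8 and Psmb9 both lie on chromosome 17, where they are neighbours in the major histocompatibility complex, while Psmb10 lies on chromosome 8.

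PA28 opens the gate of the 20S core and favours the release of peptides for antigen presentation. Psme1, its alpha subunit, read 10.81 and 11.04 in RXF393 muscle and 12.18 and 12.81 in SKRC39 muscle. The groups were separated by over 1 log2 unit. Its log2 change was -1.57 ± 0.41 (SE, 95% interval -2.52 to -0.61), or 2.96-fold lower in RXF393 muscle, with an adjusted p of 0.208 (limma). A second Psme1 probe read 9.68 and 8.43 in RXF393 muscle and 11.35 and 11.38 in SKRC39 muscle, a log2 change of -2.31. Psme2, the beta subunit, read 6.43 and 5.58 in RXF393 muscle, detected on 1 of the 2 arrays, and 8.68 and 6.00 in SKRC39 muscle. RXF393 replicate 2 lay above SKRC39 replicate 2, so the groups overlapped. The difference in group means is a bound, at least 2.28-fold lower in RXF393 muscle, with an adjusted p of 0.56 (limma). The 95% interval of the log2 change of Psme2 ran from -3.58 to 0.92. Without SKRC39 replicate 1, its log2 change was 0.010. Psme1 and Psme2 are both on chromosome 14.

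The other caps behaved differently in value. Psme3, which forms a nuclear cap of the same family that is not part of the interferon response, read 11.61 and 12.00 in RXF393 muscle and 10.81 and 11.23 in SKRC39 muscle. The groups did not overlap, and the log2 change was 0.78 ± 0.41 with an adjusted p of 0.462 (limma). Psme4, the large cap PA200, read 14.64 and 14.70 in RXF393 muscle and 14.59 and 14.45 in SKRC39 muscle. Its groups were separated by under 0.1 log2 units, and its log2 change was 0.15 ± 0.24 with an interval from -0.40 to 0.71.

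**Figure D2:**
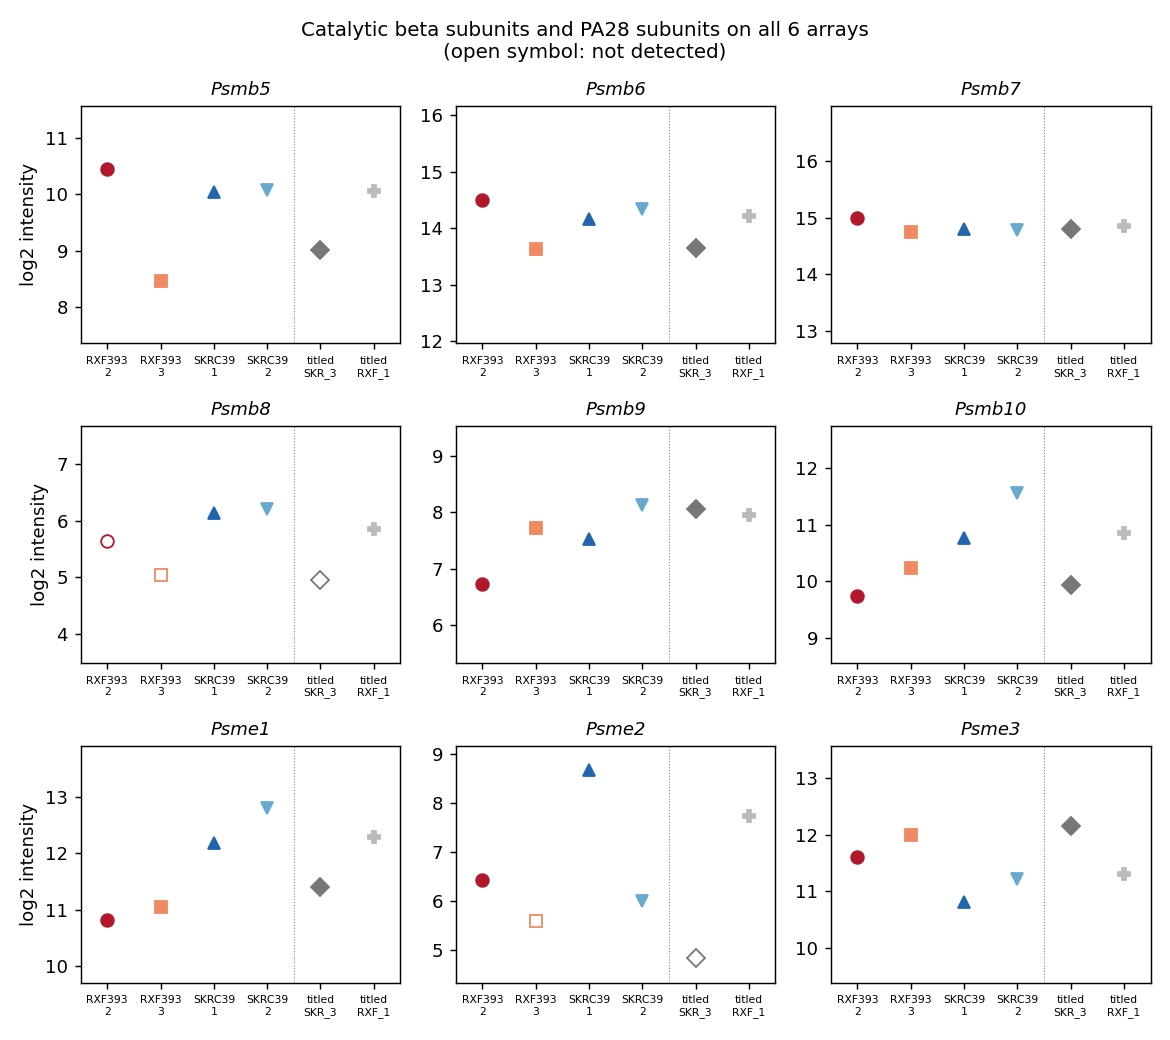
Log2 intensity of the 3 constitutive cutting subunits, the 3 immunoproteasome subunits that replace them, the PA28 subunits Psme1 and Psme2, and Psme3, on every array. Open symbols mark arrays where the probe was not detected. RXF393 arrays stand left of SKRC39 arrays, and the arrays titled SKR_3 and RXF_1 apart at the right. Psmb8, Psmb10 and Psme1 are lower on both RXF393 arrays than on both SKRC39 arrays, while Psmb5, Psmb6 and Psmb7 overlap.

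Immune cells express the immunoproteasome at high levels, so markers of the other cells in muscle are given beside these values. All 8 myofibre markers were detected on every array, with summed signals of 412100 and 384100 in RXF393 muscle and 440500 and 455500 in SKRC39 muscle. The summed signal of 10 macrophage markers was 2522 and 2459 in RXF393 muscle and 2742 and 4121 in SKRC39 muscle, with Itgam not detected on any array. These markers disagreed: of 9 tested, 3 had positive and 6 negative log2 changes, from -2.69 to 1.65, with a median of -0.21. The summed signal of 14 neutrophil markers was 14690 and 11110 in RXF393 muscle and 623.9 and 1006 in SKRC39 muscle. Lcn2, which cells other than neutrophils also make, carried 12280 and 4410 of it in RXF393 muscle, and without it the sums were 2416 and 6697 in RXF393 muscle and 562.8 and 923 in SKRC39 muscle. Among the 14, 7 were not detected on any array: the granule protein genes Ngp, Camp, Ltf, Mpo, Elane and Mmp8, and the receptor gene Cxcr2. Of 6 lymphocyte markers at most 1 was detected on any array, Cd3g, Ms4a1, Cd8a and Cd4 on none. The summed signal of 10 fibroblast markers was 19780 and 25340 in RXF393 muscle and 30390 and 33660 in SKRC39 muscle. That sum mostly follows Dcn, by far the brightest of them, whose log2 change was -0.45. All 4 tested erythroid markers had positive log2 changes, with a median of 2.20, including 3.65 for Slc4a1 and 2.61 for Alas2. So had 6 of the 7 tested neutrophil markers, with a median of 2.68. All 9 tested fibroblast markers had negative ones, with a median of -1.50. The filter fixed the direction of Retnlg and Chil3, undetected on both SKRC39 arrays. It also fixed that of Col1a2, Col3a1 and Fmod, undetected on both RXF393 arrays. Csf3r, undetected on both RXF393 arrays and detected on 1 of the 2 SKRC39 arrays, overlapped between groups. The summed signal of the 4 erythroid markers was 79010 and 75040 in RXF393 muscle and 67490 and 26680 in SKRC39 muscle. Sums of endothelial, adipocyte and NK markers overlapped between the groups. In whole muscle, fewer cells of a type and less RNA per cell cannot be told apart, and the part of these cells in the proteasome values was not tested.

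Genes that work with the immunoproteasome in antigen presentation did not all lie on the same side. Of 14 on that list 9 were tested, 3 with positive and 6 with negative log2 changes, with a median of -0.23. The 3 positive ones were Gbp2, Erap1 and Ifi47. Erap1 and Ifi47 were undetected on both SKRC39 arrays, so the detection filter fixed their direction. Of the 9 genes none was called by limma, and none had an unadjusted p below 0.05. At that limit 8.1% of all genes tested were higher and 6.69% lower. The genes named next were chosen after their values were seen. H2-K1, a class I heavy chain, read 8.06 and 5.02 in RXF393 muscle, detected on 1 of the 2 arrays, and 9.29 and 8.56 in SKRC39 muscle. It was at least 3.89-fold lower in RXF393 muscle, without overlap, with an adjusted p of 0.401 (limma). B2m, the light chain of class I molecules, had a log2 change of -0.23, and Irf1, an interferon-response factor, one of -0.32. Tap1, Tapbp, Nlrc5 and Iigp1 were not detected on any array.

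All 16 tested subunits of the 19S cap had a positive log2 change on their brightest probe. Its 6 ATPases form the ring that unfolds substrates, with a median log2 change of 1.11. Psmc4 read 15.05 and 15.65 in RXF393 muscle and 13.37 and 13.89 in SKRC39 muscle. Psmc2 read 15.77 and 16.11 in RXF393 muscle and 14.64 and 14.87 in SKRC39 muscle. Psmc5 read 13.73 and 14.25 in RXF393 muscle and 12.68 and 13.25 in SKRC39 muscle. In each, the lower RXF393 array was above the higher SKRC39 array. The log2 change of Psmc4 was 1.72 ± 0.32 (SE, 95% interval 0.97 to 2.47), or 3.29-fold higher in RXF393 muscle, with an adjusted p of 0.114 (limma). That of Psmc2 was 1.19 ± 0.23, adjusted p = 0.129, and that of Psmc5 was 1.03 ± 0.34, adjusted p = 0.306 (limma). The mean of its 2 probes gave -0.49 for Psmc5, since the second probe lay in the other direction.

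Of the other ATPases, Psmc3 had a log2 change of 0.72 ± 0.26, without overlap. Psmc6, detected on 1 of the 2 SKRC39 arrays, was at least 3.87-fold higher in RXF393 muscle, adjusted p = 0.377 (limma). Psmc1 overlapped, at 0.30 ± 0.60, with RXF393 replicate 2 above both SKRC39 arrays and replicate 3 below both. At an unadjusted p below 0.05, 5 of the 6 ATPases were higher, or 83.3%, against 8.1% of all genes tested.

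The non-ATPase subunits build the lid and the scaffold of the cap. Of 11, 10 were tested, with a median log2 change of 0.69. At an unadjusted p below 0.05, 6 were higher, or 60%, against 8.1% of all genes tested. Psmd14, the enzyme that cuts ubiquitin chains off the substrate, read 11.28 and 11.97 in RXF393 muscle and 9.33 and 9.92 in SKRC39 muscle. Psmd4, a ubiquitin receptor, read 15.94 and 16.09 in RXF393 muscle and 15.06 and 15.25 in SKRC39 muscle. Psmd1, a scaffold subunit of the base, read 15.40 and 16.03 in RXF393 muscle and 14.77 and 14.45 in SKRC39 muscle. RXF393 arrays stood above SKRC39 arrays in all 3.

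Psmd14 had a log2 change of 2.00 ± 0.49 (SE, 95% interval 0.84 to 3.17), or 4.01-fold higher in RXF393 muscle, with an adjusted p of 0.194 (limma). Its second probe gave 1.91. Psmd4 was within 20% of the highest signal on both RXF393 arrays, so its fold is a bound, at least 1.81-fold higher, with an adjusted p of 0.193 (limma). Psmd1 had a log2 change of 1.10 ± 0.28, adjusted p = 0.208 (limma). The lid subunits Psmd6, Psmd8 and Psmd13 followed at 1.96 ± 0.75, 0.68 ± 0.27 and 0.70 ± 0.29, all without overlap. Psmd7, the lid partner of Psmd14, was separated at 0.55 ± 0.30. Psmd2, a scaffold subunit detected on 1 of the 2 SKRC39 arrays, was at least 1.48-fold higher in RXF393 muscle, adjusted p = 0.604 (limma). Psmd11 and Psmd12 overlapped on their brightest probes, at 0.54 ± 0.64 and 0.37 ± 0.39. Their second tested probes gave 2.77 and 1.74, both without overlap.

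**Figure D3:**
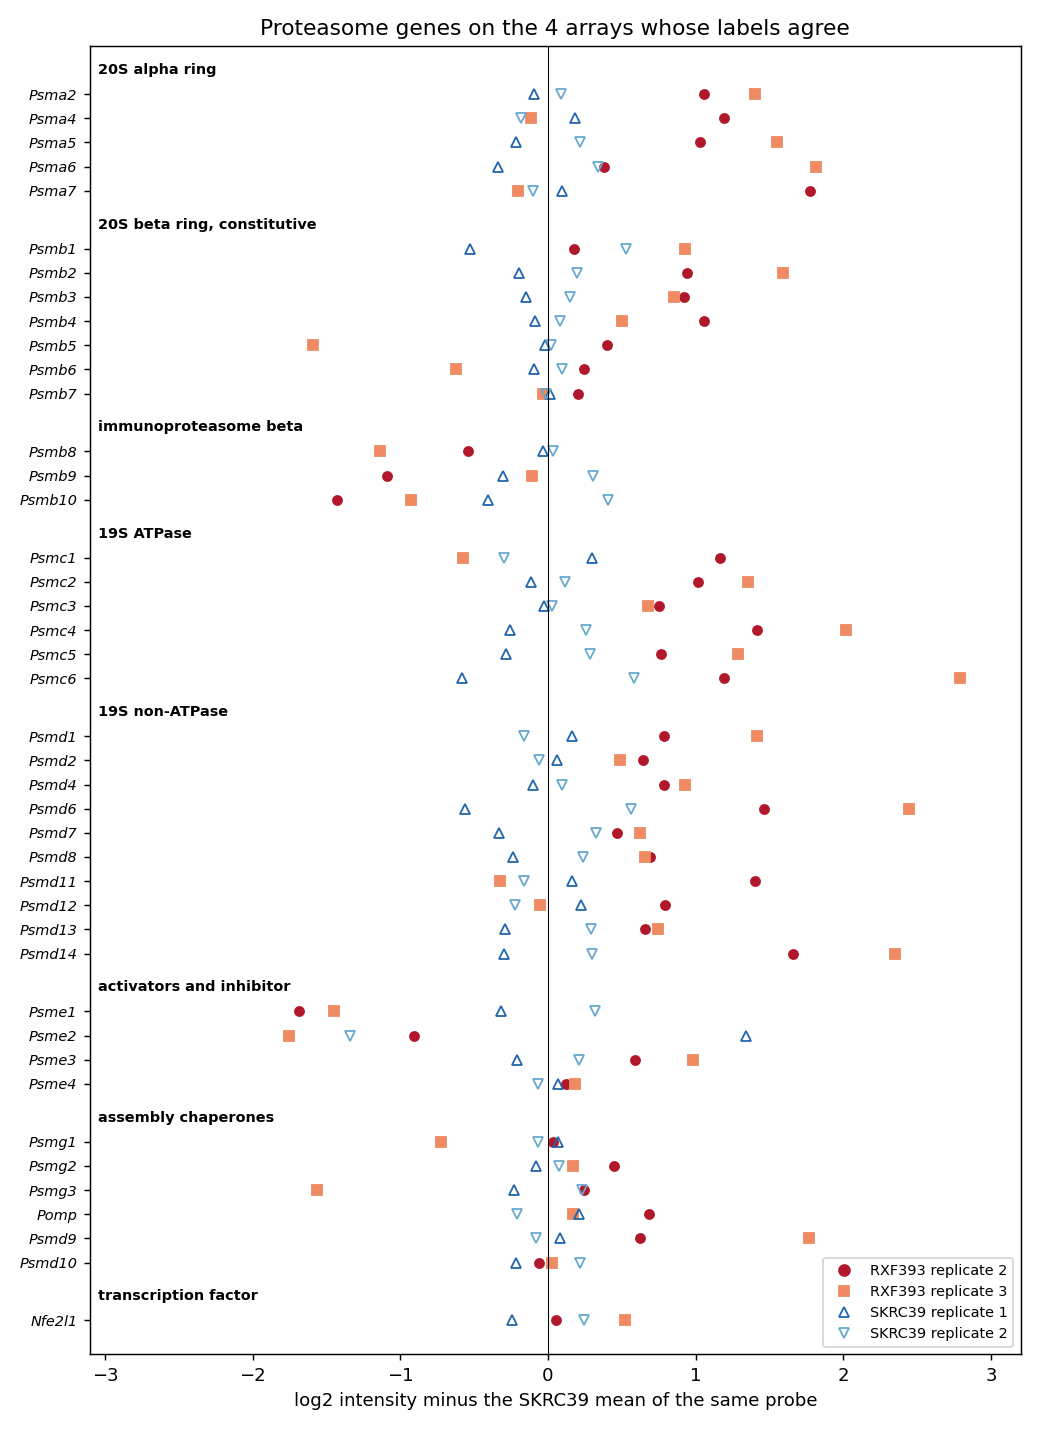
Log2 intensity of each tested gene minus its SKRC39 mean on the 2 RXF393 arrays (filled symbols) and the 2 SKRC39 arrays (open symbols), with genes down the page grouped by role. Most 20S and 19S genes are positive on RXF393 replicate 2, while replicate 3 holds both the highest and some of the lowest values.

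Assembly chaperones build the particle and leave it once it is complete. Of 8, 6 were tested, 3 with positive and 3 with negative log2 changes, with a median of 0.15 and none at an unadjusted p below 0.05. At that limit 8.1% of all genes tested were higher and 6.69% lower. Pomp, which helps the 20S core mature, read 14.61 and 14.10 in RXF393 muscle and 14.14 and 13.72 in SKRC39 muscle. Psmd9, a chaperone of the 19S base, read 6.39 and 7.54 in RXF393 muscle and 5.85 and 5.69 in SKRC39 muscle. Pomp overlapped narrowly, at 0.43 ± 0.31, and Psmd9 did not, at 1.19 ± 0.62, with adjusted p values of 0.56 and 0.46 (limma).

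Psmg1, Psmg2 and Psmg3 are chaperones of the alpha ring. Psmg3 read 9.47 and 7.66 in RXF393 muscle and 9.002 and 9.46 in SKRC39 muscle. Psmg1 read 9.37 and 8.61 in RXF393 muscle and 9.41 and 9.27 in SKRC39 muscle. Both had RXF393 replicate 3 alone at the low end, with log2 changes of -0.66 ± 0.75 and -0.35 ± 0.58. Psmg2 stood at 0.31 ± 0.37. Psmd10, a chaperone of the 19S base also known as gankyrin, read 10.53 and 10.62 in RXF393 muscle and 10.37 and 10.80 in SKRC39 muscle, with a log2 change of -0.02 ± 0.45. Nfe2l1 itself read 15.01 and 15.48 in RXF393 muscle and 14.71 and 15.20 in SKRC39 muscle. Its groups overlapped, with a log2 change of 0.29 ± 0.28 and an adjusted p of 0.656 (limma). Its mRNA does not report its activity, which depends on processing of the protein.

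Proteins that dock on the cap or carry substrates to it were taken from a list of 20, of which 14 were on the array and 9 tested. Of the 9, 7 had positive log2 changes, with a median of 0.86. An unadjusted p below 0.05 was reached by 3, all higher in RXF393 muscle, or 33.3%, against 8.1% of all genes tested. None was called by limma after adjustment. Zfand2a, an arsenite-inducible protein that associates with the 19S cap, read 12.37 and 13.75 in RXF393 muscle and 10.37 and 10.68 in SKRC39 muscle. Usp14, a deubiquitinase held on the cap, read 8.02 and 8.35 in RXF393 muscle and 6.21 and 6.78 in SKRC39 muscle. Both were separated, with log2 changes of 2.54 ± 0.52 for Zfand2a, adjusted p = 0.142, and 1.69 ± 0.66 for Usp14, adjusted p = 0.361 (limma).

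The shuttle factor Ubqln1 read 13.27 and 13.46 in RXF393 muscle and 12.26 and 12.68 in SKRC39 muscle, a log2 change of 0.89 ± 0.32. Its relative Ubqln4 read 11.76 and 9.59 in RXF393 muscle and 12.10 and 11.73 in SKRC39 muscle, with overlap. The other cap deubiquitinase, Uchl5, read 10.35 and 11.69 in RXF393 muscle and 9.59 and 10.79 in SKRC39 muscle, also with overlap. Their log2 changes were -1.24 ± 0.70 for Ubqln4 and 0.83 ± 0.65 for Uchl5, with adjusted p values of 0.491 and 0.589 (limma). Adrm1 was not analysed here.

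RXF393 replicates 2 and 3 differed in a way that touches many of these values. Of the 28 tested constitutive 20S and 19S subunits, Psma6 included, 27 lay above both SKRC39 arrays on replicate 2, and none lay below both. On replicate 3, 20 lay above both and 6 below both, namely Psma7, Psmb5, Psmb6, Psmb7, Psmc1 and Psmd11. These are readings of the brightest probes. Relative to their SKRC39 means, the Psmd11 probes ran from -0.32 to 3.21 on replicate 3 and the Psmb7 probes from -4.24 to 0.82. Among the 20 above, probes of Psmc2, Psmc5 and Psmd7 also fell on both sides of 0. Over the 42 tested members, 78.6% were above both SKRC39 arrays on replicate 2 and 59.5% on replicate 3. Over all genes tested the shares were 36.1% and 47.1%. Below both SKRC39 arrays lay 4 of the 42 members on replicate 2 and 12 on replicate 3. Of all genes tested, 33.6% and 35.3% lay below both on these arrays.

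Different probes of a gene also diverged more on replicate 3. Among the 18 members with several tested probes, the median range between probes, each relative to its SKRC39 mean, was 0.31 log2 units on replicate 2 and 1.38 on replicate 3. It was 1.03 on the array titled SKR_3 and 0.29 on the array titled RXF_1. Between SKRC39 replicates 2 and 1 it was 0.71. In 13 of the 18 members all probes had log2 changes of the same sign, and in 5 they did not: Psmb7, Psmc5, Psmd7, Psmd10 and Psmg2.

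The following probes were chosen after their values were seen. A second Psmc5 probe read 10.04 and 5.07 in RXF393 muscle and 11.83 and 7.28 in SKRC39 muscle, while its brighter probe was higher on both RXF393 arrays. A further Psmb7 probe read 11.61 and 7.57 in RXF393 muscle and 13.91 and 9.70 in SKRC39 muscle, while the brightest Psmb7 probe hardly differed between arrays. A Psmd7 probe read 8.42 and 5.98 in RXF393 muscle and 9.95 and 6.40 in SKRC39 muscle. In all 3, SKRC39 replicate 1 was the highest of the 4 arrays and RXF393 replicate 3 the lowest, and the replicates of each line were over 2 log2 units apart. Probe sequences were not used here, and the cause was not tested. Psmd14, Psmd6, Psmb10 and Psme1 had 2 probes each, whose values had the same sign on both RXF393 arrays.

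**Figure D4:**
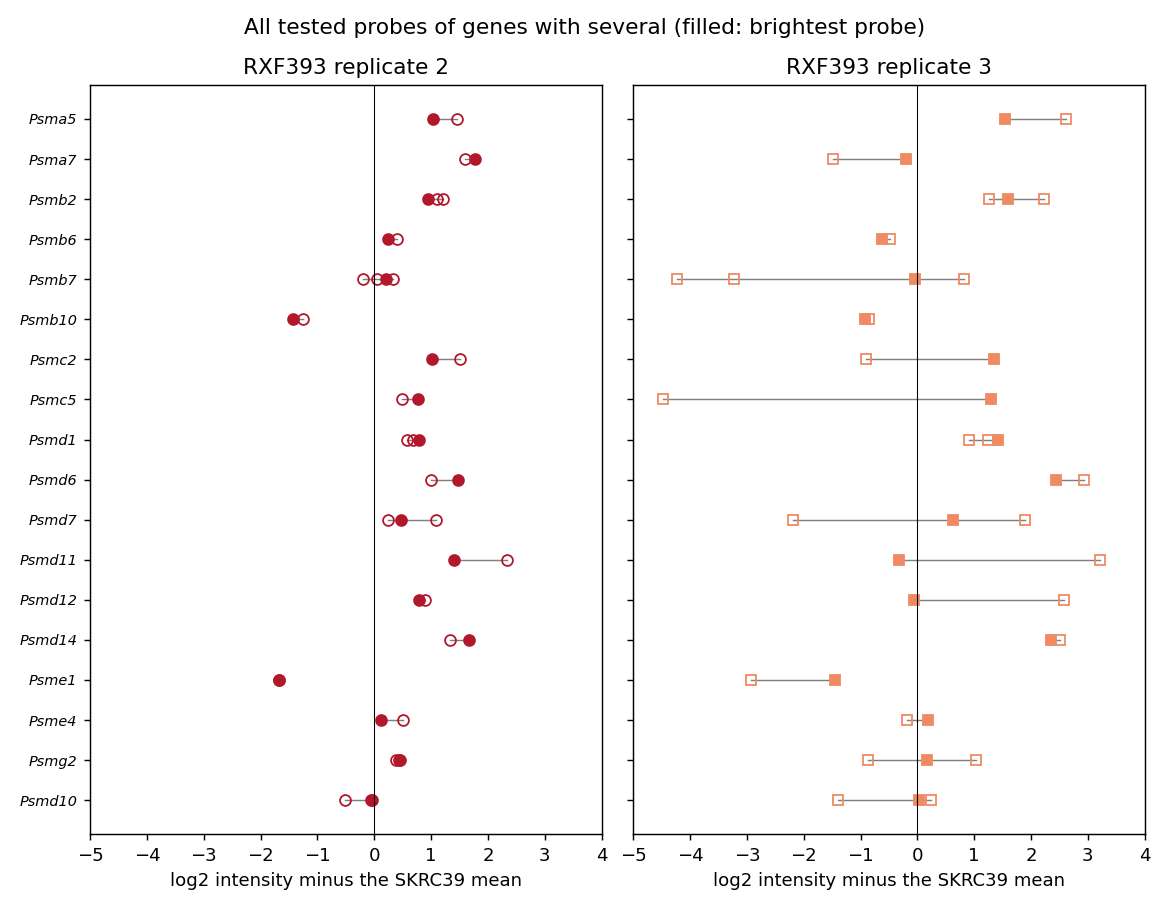
Values of every tested probe of the members with several probes, relative to each probe's SKRC39 mean, on RXF393 replicate 2 and on RXF393 replicate 3. Probes of a gene stay close together on replicate 2, with a median range of 0.31, and spread further on replicate 3, with a median range of 1.38.

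The arrays with conflicting labels fell on different sides in value. On the array titled SKR_3, the 28 constitutive 20S and 19S subunits, Psma6 included, had a median of 0.64 relative to the SKRC39 mean. On that array 20 lay above both SKRC39 arrays, or 71.4%, against 46.1% of all genes tested. The array titled RXF_1 had a median of 0.01, with 9 above both, or 32.1%, against 26.8% of all genes. For the 5 immunoproteasome and PA28 genes, Psmb8 included, the medians were -1.23 on the array titled SKR_3 and -0.20 on the array titled RXF_1. The RXF393 arrays stood at -1.09 and -1.14 for these 5 genes. Psmc4 read 15.67 on the array titled SKR_3 and 13.48 on the array titled RXF_1, Psmd14 read 11.53 and 10.21 on the same arrays, and Psme1 11.40 and 12.29. Detected probes made up 33.7% and 30.9% of the RXF393 arrays and 37.7% and 33.7% of the SKRC39 arrays. On the array titled SKR_3 they made up 30.3%, and on the array titled RXF_1 36.5%.

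Grouped by their characteristics, all 6 arrays gave 3 per line, and with that grouping limma called members in both directions. Of the 42 tested members, 16 were called higher in RXF393 muscle, or 38.1%, against 10.5% of all genes. A further 2, Psmb10 and Psme1, were called lower, or 4.76%, against 7.81% of all genes. The 16 were the same 16 members that had an unadjusted p below 0.05 on the 4 arrays, which both groupings share. Log2 changes were 1.88 ± 0.22 for Psmc4, adjusted p = 0.0037, and 1.25 ± 0.14 for Psmc2, adjusted p = 0.00352 (limma). Psmd14 stood at 1.78 ± 0.32, adjusted p = 0.0138, Psmb10 at -1.10 ± 0.31, adjusted p = 0.0485, and Psme1 at -1.34 ± 0.26, adjusted p = 0.0173 (limma). Grouped by title, no gene tested was called, member or not, and no member had an unadjusted p below 0.05. Of all genes tested, 0.0883% were higher at that limit. The calls with 6 arrays thus depend on which label is used.

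**Figure D5:**
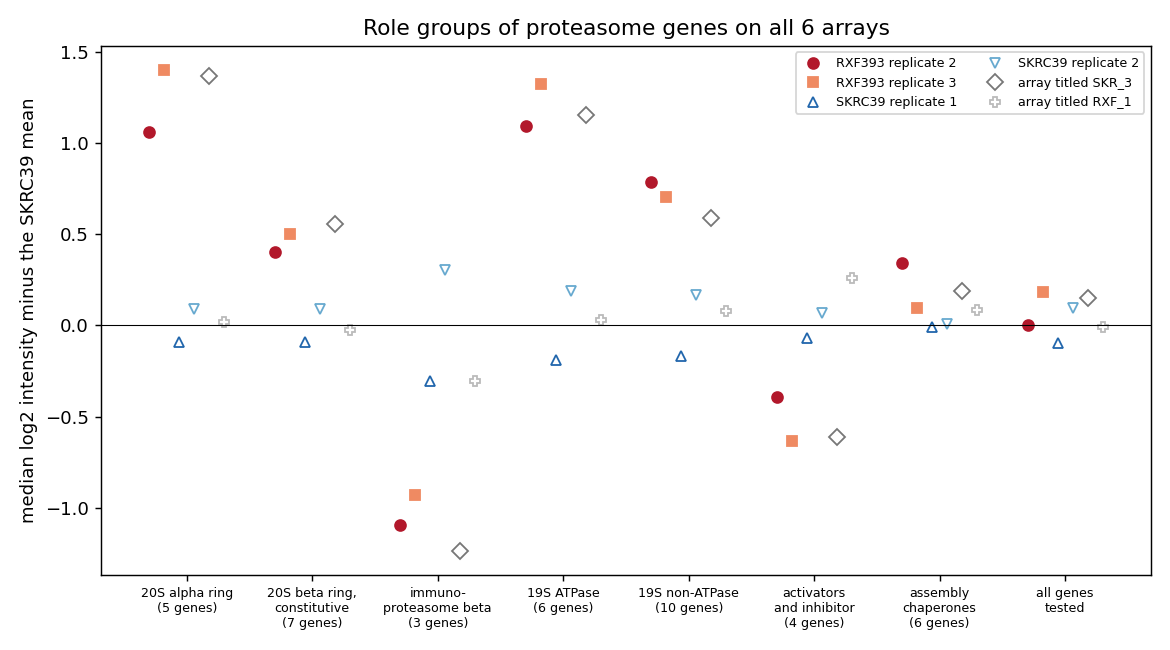
Median log2 intensity relative to the SKRC39 mean for each role group of proteasome genes (Psma6 and Psmb8 included) and for all genes tested, with 1 point per array. Alpha ring and 19S ATPase medians are 1.06 and 1.09 on RXF393 replicate 2 and 1.40 and 1.32 on RXF393 replicate 3, and the immunoproteasome medians are -1.09 and -0.93 on these 2 arrays.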

How the data were processed

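Total RNA of quadriceps muscle was measured on 6 Illumina MouseWG-6 arrays. The first deposited table gives each probe's intensity without normalization, beside its detection p-value, as its file headers say. Another deposited table, used as an alternative, gives the authors' quantile-normalized intensity (GenomeStudio, per the submitters' processing notes). Of 45281 probes, 34885 carried 1 gene symbol, 18 several and 10378 were unlisted. By gene ID, 34807 matched RefSeq GRCm38.p6.

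Background was removed by normexp, with the negative controls inferred out of the detection p-values. Values were given an offset of 16, quantile-normalized over 6 arrays and taken to log2 (neqc, limma 3.58.1, R 4.3.3). The offset understates changes of dim probes. The 17738 probes detected at p below 0.05 on at least 2 arrays were tested with lmFit and eBayes (intensity trend) on the 4 arrays with concordant labels, adjusted by Benjamini-Hochberg over all of them. The fit was tested on simulated data.

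A probe undetected on an array of the dimmer group, or a probe whose brighter group lay no more than 20% under the array maximum on each array, gives its fold as "at least". For an undetected probe the dim value was the higher of its own and the lowest detected signal on that array. Such a bound is on the measured difference of group means and leaves out the spread between arrays. Marker sums add normalized signals on the linear scale.

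Array values are given, by rule, for the 3 members of each role with the smallest p, members opposite in sign to the overall median, and a preset list of catalytic, cap and regulatory genes. Of the partner, p97 and ubiquitin lists, the 3 with the smallest p in each direction and a preset few are given. Members and lists were chosen with earlier results of these data known. Alternatives changed the source table, scaling, offset, filter, probe averaging, variance trend, threshold, arrays and replicate block.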

Additional observations from a re-analysis of the deposited data

Results flagged for a closer look

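On the array titled SKR_3, which entered no comparison because its labels conflict, the tested members had a median of 0.33 relative to the SKRC39 mean. The SKRC39 arrays themselves lay at -0.11 and 0.11, and all genes tested had a median of 0.15 on that array. On the array titled RXF_1 the members' median was 0.02.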

How the results depend on the processing

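Of 224 comparisons of a count or median with an alternative, 166 stayed near their value, 53 moved and 5 turned sign, while 367 of 429 for single members kept direction and side. Members called higher numbered 0 to 6 when each array was left out, lower 0 to 0. At an unadjusted p below 0.05 the ranges were 8 to 15 higher and 1 to 2 lower, and for separated members 25 to 33 above and 4 to 12 below. Separation is easier for every gene with 1 array left in a line. Shares over all genes tested were then 34.2% to 47.1% above and 31.3% to 35.3% below. On the 4 arrays they were 28.1% and 20.6%, so the rise in separated genes was not particular to the members. Medians ranged from 0.51 to 0.72 over members, 0.89 to 1.40 in the alpha ring, 0.10 to 0.86 in the constitutive beta ring, -1.09 to -0.77 in the immunoproteasome, 0.91 to 1.32 in ATPases, 0.66 to 0.93 in non-ATPases, -0.63 to 0.12 in activators and -0.0010 to 0.34 in chaperones. The activator median above 0 and the chaperone median below 0 came without SKRC39 replicate 1. The alpha ring and immunoproteasome medians include Psma6 and Psmb8, whose direction the detection filter fixed. Single members crossed 0: Psmb5 from -1.59 to 0.40, Psmb6 -0.63 to 0.24, Psme2 -2.67 to 0.010, Psmg1 -0.73 to 0.031, Psmg3 -1.57 to 0.24 and Psmd10 -0.23 to 0.20.

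Whether description numbers pair the arrays is not settled. Grouped by characteristics, deviations of same-numbered arrays correlated at 0.486, -0.119 and 0.464, and on the 4 arrays at 0.514. Of 6 arrays, 4 correlated best with their own number. With the replicate block, 6 members were called higher on 4 arrays (1.85% of all genes) and 2 were lower at the unadjusted limit. On 6 arrays by characteristics with the replicate block, 20 were called higher (16.2% of all genes) and 3 lower (14.4%), 4 lower unadjusted, and the beta median was 0.71.

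Requiring detection on all 6 arrays gave 3 members higher (Psma2, Psmc2, Psmc4) and an activator median of 0.15, since the dim Psme2 drops out. Without the intensity trend 8 were higher unadjusted. In the authors' table the medians were 0.78 (alpha), -0.34 (immunoproteasome) and -0.29 (activators). Median scaling gave 0.79 over members, 0.76 (beta), 0.93 (non-ATPase), 0.31 (chaperones), and turned Psmb6 to 0.066 and Psmd10 to 0.072. An offset of 50 gave 0.79 (alpha) and -0.51 (immunoproteasome), and no filter 0.79 (alpha). Averaging a gene's probes gave 0.73 (ATPase), 0.90 (non-ATPase), -0.014 (chaperones) and Psmc5 at -0.49. By characteristics 16 were higher and 2 lower, 4 lower unadjusted, with 0.71 (beta), Psme4 at -0.019 and Psmd10 at 0.066 with or without the block. By title 0 were higher and 0 lower unadjusted, with 0.0883% of all genes higher. Separated members numbered 2 above and 0 below, against 0.814% and 0.873% of all genes. Medians by title were 0.24 over members, 0.39 (alpha), 0.069 (beta), -0.43 (immunoproteasome), 0.33 (ATPase), 0.31 (non-ATPase) and 0.16 (activators). There Psmb6 stood at 0.064, Psme2 at 0.086 and Psmg3 at 0.21. The causes were not tested.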

Other observations

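The p97 complex extracts ubiquitin-tagged proteins from membranes and assemblies and hands them to the proteasome. Of 11 genes on its list 9 were tested, 5 with positive and 4 with negative log2 changes, with a median of 0.05. The ATPase Vcp read 15.31 and 14.47 in RXF393 muscle and 14.77 and 14.91 in SKRC39 muscle, a log2 change of 0.05 ± 0.32 with an adjusted p of 0.955 (limma). Syvn1, a ubiquitin ligase of the endoplasmic reticulum, read 12.37 and 13.10 in RXF393 muscle and 11.83 and 11.61 in SKRC39 muscle. Its groups did not overlap, with a log2 change of 1.02 ± 0.39 and an adjusted p of 0.357 (limma). The p97 cofactor Nsfl1c read 11.35 and 6.60 in RXF393 muscle and 11.51 and 9.48 in SKRC39 muscle. Of the ubiquitin genes, only Uba6, a ubiquitin-activating enzyme, was tested of 6 listed. It read 11.61 and 11.68 in RXF393 muscle and 11.33 and 13.41 in SKRC39 muscle, with overlap.

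Subunits known from other tissues were at the limit of detection, and were singled out after their values were seen. Psma8, known from testis, was detected on 1 of the 6 arrays, RXF393 replicate 3. Psmb11, known from thymus, was detected on 1 of the 6, SKRC39 replicate 1.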
